A study of Rattus norvegicus and Sus scrofa and Bos taurus with 188 samples.

Results

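The kinetochore is the protein assembly that ties each chromosome to the spindle in cell division, and the genes described here encode its parts, the spindle checkpoint that watches it and the Aurora kinase machinery that corrects its faults. The rule that takes them reads gene symbols and no measured value, although it was drawn up with earlier results of these data known. The centriole gene CENPJ was left out although its name fits. They came to 49 genes of the 15877 gene names in the table analysed here. The names AURKA, KNL1, SKA1, CENPP, CENPR, CENPX and CENPV, which the choice also allows, are not analysed here.

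The series profiles chromatin marks, DNA methylation and RNA in gametes and early embryos of several mammals, and has 188 samples here in 90 groups. The values described below come from 1 group, the RNA of pig (Sus scrofa) morulae whose labels carry the mark PG. Labels of other pig embryos in the series spell that mark out as parthenogenetic activation, in which an egg is started into cleavage with no sperm. Such an embryo has a maternal genome only, and the labels give no strain, age or culture day. The libraries were made with Smart-seq2, which copies the RNA of few cells into full-length cDNA, and the authors merged the 4 libraries of the group into 1 column. There is therefore no value per sample, no spread between replicates and no p-value in what follows, and every comparison sets genes of the same merged embryos side by side. No other group was analysed, so RNA stored in the egg and RNA made by the embryo cannot be told apart.

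In vertebrates the kinetochore is built in layers. The histone variant CENPA marks the centromere, the constitutive centromere-associated network sits on that mark through the cell cycle, and in mitosis the KMN network (the KNL1, MIS12 and NDC80 complexes) is added on top and grips the microtubules. Where a kinetochore is not attached, the checkpoint kinases and the MAD and BUB proteins hold back anaphase, and Aurora B within the chromosomal passenger complex releases wrong attachments. Cleaving blastomeres divide repeatedly without growing, and eggs carry a stock of such transcripts for the last meiotic divisions and the first cleavages.

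Levels are in FPKM, the fragments assigned to a transcript divided by its length and by the mapped total of the library, and the value of a gene is that of its highest transcript row. The depth of the libraries is unknown. All 10 morula and blastomere markers had values, and 9 of them reached 1 FPKM, from 3.16 to 194 FPKM, with CDX2, a trophectoderm regulator, at 0.121 FPKM. Of 15 cumulus and granulosa cell markers 13 had values, and 2 of these reached 1 FPKM, VCAN at 10.2 FPKM and VIM at 2.25 FPKM. FSHR, INHA, FOXL2 and TNFAIP6 were listed at 0, and the highest of the others was CYP19A1 at 0.835 FPKM. With the rows of a gene summed, VCAN stood at 19.1 FPKM, VIM at 3.21 FPKM and CYP19A1 at 1.06 FPKM. All 9 oocyte genes of the marker list reached 1 FPKM, from 1.44 to 179 FPKM. The part of cumulus RNA or of RNA stored in the egg in the levels below was not tested. The last 474 rows of the table were all at 0 and hold the only rows of 215 gene names, but no gene described as a member lies only there.

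The kinetochore, checkpoint and Aurora genes with a value reached 1 FPKM almost without exception. The 7 names not analysed, AURKA, KNL1 and SKA1 among them, are outside these counts. A level of at least 1 FPKM was reached by 47 of the 49 (95.9%), against 48.8% of all 15877 genes. Those 15877 names include 2745 at 0 and were not limited to protein-coding genes. At 10 FPKM or more the count was 35 of 49 (71.4%), against 20.2% of all genes. Their median was 16.7 FPKM, against 0.916 FPKM over all genes and 6.89 FPKM over the 7747 genes at 1 FPKM or more. Above that last value lay 37 of the 49, while 24.4% of all genes stood at 6.90 FPKM or more. With the mean of a gene's rows in place of the highest, the median of the members was 10.2 FPKM. The middle 50% of the members spanned 7.75 to 29.1 FPKM, against 2.67 to 21.4 FPKM for the genes at 1 FPKM or more. From 5 to under 50 FPKM lay 35 of 49, against 22.2% of all genes. At 50 FPKM or more the count was 7 of 49, against 6.24% of all genes, and at 100 FPKM or more it was 2 of 49, against 3.14% of all genes. The high share of members held under other ways of counting. At 0.5 FPKM it was 47 of 49, against 56.5% of all genes, and at 5 FPKM 42 of 49, against 28.4%. With the rows of a gene summed it was 47 of 49, against 50.6%, and with the table scaled to TPM 48 of 49, against 61.3%. Among genes at 0.1 FPKM or more alone it was 47 of 49, against 68.1%, and outside the trailing zero rows 47 of 49, against 49.5%. All rows of the 49 genes together held 0.476% of the FPKM total.

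**Figure D1:**
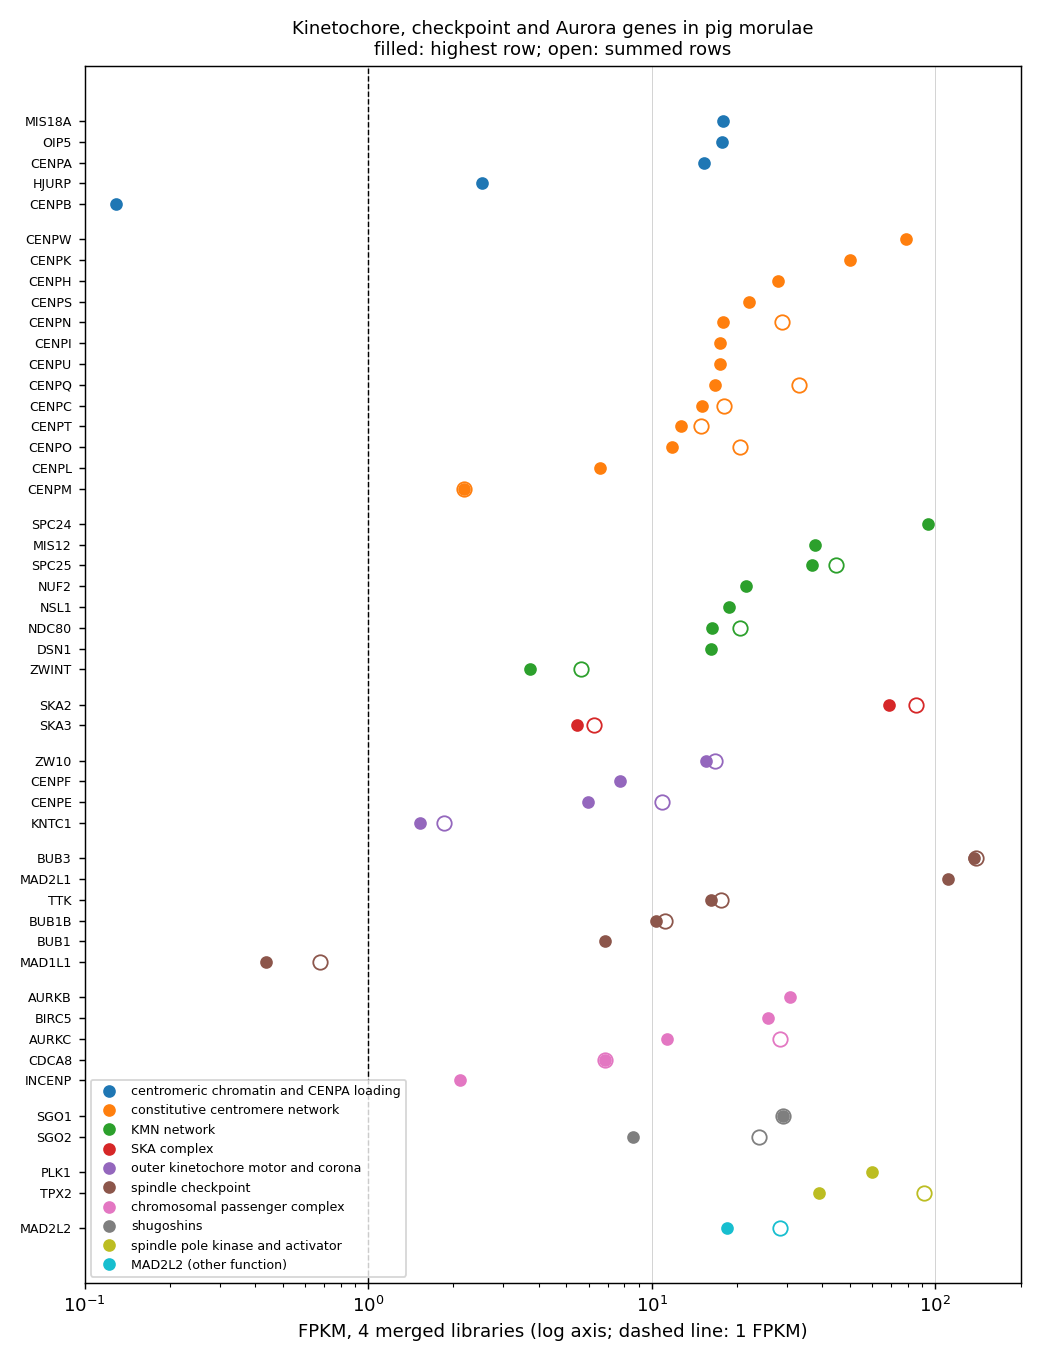
FPKM of 48 of the 49 genes on a log axis, grouped and coloured by role, with filled points for the highest transcript row and open points for the sum of all rows where a gene has several. BUB3 and MAD2L1 lie above 100 FPKM, and only CENPB and MAD1L1 lie left of the dashed line at 1 FPKM.

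**Figure D2:**
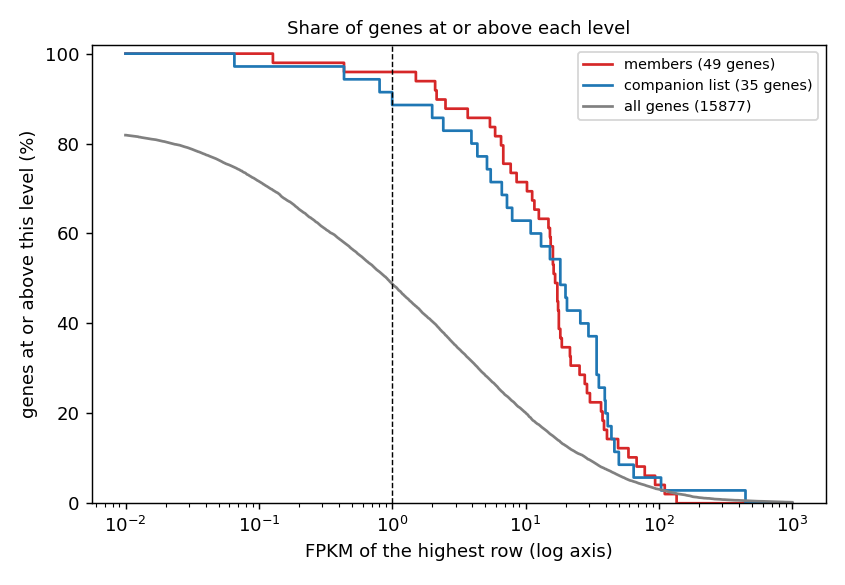
Percent of genes at or above each FPKM level (log axis) for the 49 members, the 35 measured genes of the companion list, and all 15877 genes. The companion list holds further kinetochore, spindle and cytokinesis genes. At 1 FPKM the curves stand at 95.9% for the members, 91.4% for the companion list and 48.8% for all genes.

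The order of levels began with BUB3 at 137 FPKM and MAD2L1 at 111 FPKM, both checkpoint proteins. The outer kinetochore subunit gene SPC24 (94.5 FPKM), the histone-fold gene CENPW (78.8 FPKM), the microtubule-coupling gene SKA2 (68.7 FPKM), the polo kinase gene PLK1 (59.7 FPKM) and CENPK (50.04 FPKM) followed. The 2 genes below 1 FPKM were CENPB at 0.129 FPKM and MAD1L1 at 0.436 FPKM. Next above them, and all under 5 FPKM, stood KNTC1, INCENP, CENPM, HJURP and ZWINT, from 1.52 to 3.73 FPKM. Without replicate spread, neighbours in this order cannot be separated, and 18 of the 49 genes lay between 10 and 20 FPKM. Of all 15877 genes 3200 stood at 10 FPKM or more and 2033 at 20 FPKM or more.

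At the base of the structure are the centromeric histone and the proteins that load it. CENPA itself, the histone H3 variant that defines the centromere, stood at 15.3 FPKM. MIS18A and OIP5, also known as MIS18B, form the core of the complex that licenses its deposition, and were nearly level at 17.8 and 17.6 FPKM. HJURP, the chaperone that carries CENPA to the centromere, was lower, at 2.53 FPKM. CENPB, which binds a DNA motif in centromeric repeats, was the lowest of all 49 genes. Its value of 0.129 FPKM came from 1 transcript row, and 30.4% of all genes lay below it.

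All 13 measured genes of the constitutive centromere-associated network reached 1 FPKM, with a median of 17.4 FPKM, or 10.2 FPKM with the mean of a gene's rows. Of its genes 11 lay between 11.8 and 78.8 FPKM. CENPC, the scaffold that binds the CENPA nucleosome, stood at 15.0 FPKM. CENPN, which also reads that nucleosome, stood at 17.8 FPKM and its partner CENPL at 6.59 FPKM. In the group of CENPH, CENPI, CENPK and CENPM, CENPK was highest at 50.04 FPKM, CENPH stood at 27.9 FPKM and CENPI at 17.4 FPKM. CENPM, a pseudo-GTPase in the same assembly, stood apart at 2.17 FPKM, 23.0-fold under CENPK, and 3 of its 4 transcript rows were under 0.001 FPKM. The histone-fold genes CENPW, CENPS and CENPT stood at 78.8, 22.1 and 12.7 FPKM. CENPT, whose tail recruits NDC80, was thus 6.21-fold under CENPW, with which it pairs. CENPU, CENPQ and CENPO, of the assembly named for CENPO, lay closest together, at 17.4, 16.7 and 11.8 FPKM by the highest row. With summed rows they stood at 17.4, 33.2 and 20.5 FPKM, so their order depended on how rows were combined. CENPP and CENPR of the network are not analysed here.

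The KMN network grips the microtubule, and all 8 of its genes among the members reached 1 FPKM, with a median of 20.2 FPKM. The NDC80 complex was measured in full. Its globular inner subunits SPC24 and SPC25 stood at 94.5 and 36.9 FPKM, and the microtubule-binding arm, NUF2 and NDC80, at 21.6 and 16.3 FPKM. SPC24 and NDC80 therefore lay 5.79-fold apart, while NUF2 and NDC80, which form a coiled coil with each other, lay within 1.32-fold. In the MIS12 complex, which joins NDC80 to the centromere, MIS12 stood at 37.8 FPKM, NSL1 at 18.8 FPKM and DSN1 at 16.2 FPKM, a span of 2.33-fold. The fourth subunit gene, PMF1, is no member and stood at 0.0664 FPKM over all of its 3 rows, 570-fold under MIS12. So low a value has no counting interval here, so the size of this gap is uncertain. ZWINT, which binds KNL1, was the lowest of the 8 members of the network at 3.73 FPKM. Of the SKA complex, which couples the kinetochore to shrinking microtubule ends, SKA2 stood at 68.7 FPKM and SKA3 at 5.46 FPKM, 12.6-fold apart.

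**Figure D3:**
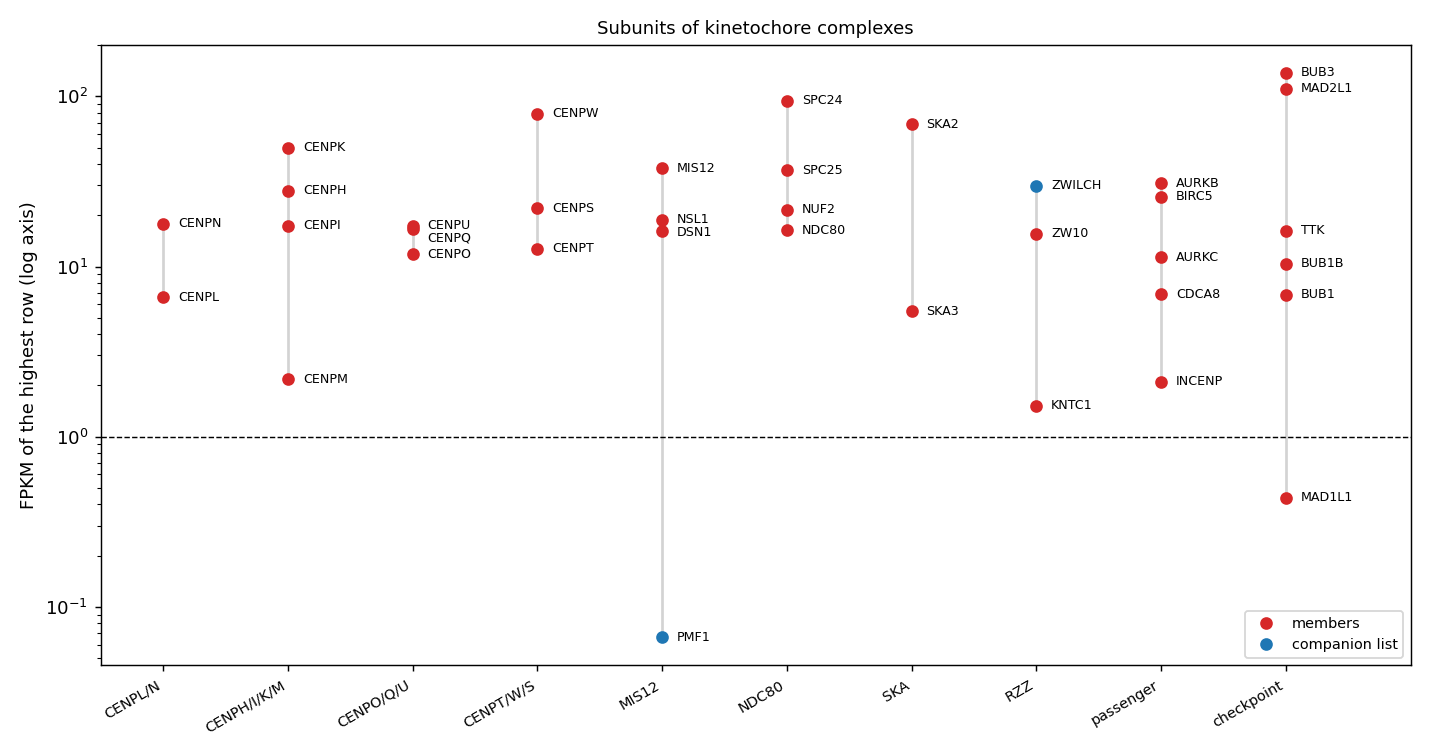
FPKM of the highest row (log axis) for the measured subunits of 10 complexes or functional sets, in red for members and in blue for genes of the companion list, with grey lines spanning each set. The CENPO set is narrow, while PMF1, KNTC1, SKA3, CENPM and MAD1L1 lie far below the other genes of their sets.

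The outermost layer is the corona that forms on unattached kinetochores. Its 4 members, CENPE, CENPF, ZW10 and KNTC1, had the lowest median among the member groups of at least 4 genes, 6.85 FPKM. All 4 were above 1 FPKM. The corona genes ZWILCH and SPDL1, at 29.8 and 46.7 FPKM, fall outside the choice of symbols and are not in this median. With the mean of a gene's rows in place of the highest, this median was 3.04 FPKM. CENPE, the kinesin that moves chromosomes to the equator, stood at 5.96 FPKM, and CENPF, a large coiled-coil protein of the corona, at 7.75 FPKM. The RZZ complex recruits dynein and the MAD proteins. Its subunit ZW10 stood at 15.6 FPKM and KNTC1, the subunit also known as ROD, at 1.52 FPKM. ZWILCH, the third subunit and no member, stood at 29.8 FPKM, 19.5-fold above KNTC1. With summed rows ZWILCH stood at 59.4 FPKM, 32.2-fold above KNTC1.

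The checkpoint genes covered a 315-fold range, and 5 of 6 reached 1 FPKM with a median of 13.3 FPKM, or 7.80 FPKM with the mean of a gene's rows. BUB3, a WD-repeat adaptor that brings BUB1 and BUB1B to KNL1, was the highest at 137 FPKM, and MAD2L1, the protein that closes around CDC20, followed at 111 FPKM. The kinase gene TTK, also known as MPS1, which starts the checkpoint signal, stood at 16.2 FPKM. BUB1B, which encodes BUBR1 of the mitotic checkpoint complex, stood at 10.4 FPKM and BUB1, its kinase paralogue, at 6.84 FPKM. BUB3 was thus 20.1-fold above BUB1. MAD1L1, the kinetochore platform on which MAD2 changes shape, stood at 0.436 FPKM, 254-fold under MAD2L1. All 3 MAD1L1 rows were under 1 FPKM and summed to 0.679 FPKM, which still left MAD2L1 163-fold higher. The low MAD1L1 value has no counting interval here, so the size of this gap is uncertain. MAD2L2 shares its name with MAD2L1, but the protein is best known as the REV7 subunit of a translesion DNA polymerase. It stood at 18.4 FPKM, and MAD2L1 was 6.01-fold above it by the highest row and 3.90-fold with summed rows.

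In the chromosomal passenger complex the kinase and the small targeting subunit were high and the scaffold was low. AURKB, the mitotic Aurora kinase of the complex, stood at 30.8 FPKM, and BIRC5, which encodes survivin and reads a phosphorylated histone mark at the centromere, at 25.8 FPKM. CDCA8, which encodes borealin, stood at 6.87 FPKM. INCENP, the scaffold that binds and activates the kinase, stood at 2.11 FPKM, 14.6-fold under AURKB. AURKC, the Aurora kinase known from mouse and human as the form of germ cells and early embryos, stood at 11.4 FPKM in its highest row. Its other rows held 10.9 and 6.13 FPKM, so that the sum of its 3 rows came to 28.4 FPKM, within 1.08-fold of AURKB, which has 1 row. The median of the 5 genes was 11.4 FPKM by the highest row and 25.8 FPKM with summed rows. Taken by the highest row, AURKB was 2.71-fold above AURKC. Both kinases were thus well above 1 FPKM, and their gap depended on how rows were combined.

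The shugoshins guard centromeric cohesion, SGO1 mainly in mitosis and SGO2 mainly in meiosis in mouse. SGO1 stood at 29.1 FPKM, nearly all of it in 1 of its 2 rows. SGO2 stood at 8.63 FPKM in its highest row, but its next rows were close, at 8.53 and 6.39 FPKM, and the sum was 24.0 FPKM. SGO1 was 3.37-fold above SGO2 by the highest row and 1.21-fold above it by the sum. PLK1, the polo kinase of kinetochores and spindle poles, stood at 59.7 FPKM in 1 row. TPX2, which activates Aurora A on spindle microtubules, stood at 38.9 FPKM in its highest row and at 91.0 FPKM over all 7, above PLK1 when summed.

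The transcript rows show how far such levels depend on the choice of row. The 49 genes had 99 rows, from 1 row in 24 genes to 7 in TPX2, and no row was listed at 0. Of the rows 72 stood at 1 FPKM or more and 12 were under 0.001 FPKM. The same shares over all rows of the table were not computed. Of the 24 genes with several rows and a level of 1 FPKM or more, 9 (37.5%) had summed rows at least 1.5 times the highest row, against 30.4% of all such genes in the table. SGO2 (2.78-fold), AURKC (2.50-fold) and TPX2 (2.34-fold) gained most from summing, followed by CENPQ, CENPE, CENPO, CENPN, MAD2L2 and ZWINT. At the other end BUB3, TTK, BUB1B, ZW10, CENPM, CDCA8 and SGO1 kept over 90% of their sum in 1 row. The share of all genes that did so was not computed. Because transcripts of a gene share sequence, the split between rows is an estimate of the authors' quantification.

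**Figure D4:**
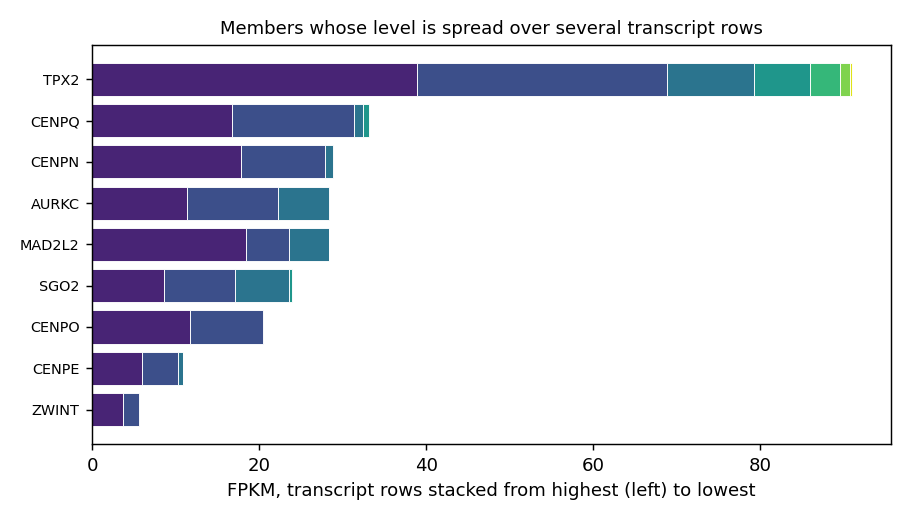
Stacked FPKM of the transcript rows for the 9 members at 1 FPKM or more whose summed rows reach at least 1.5 times the highest row, with each shade a row and the highest row at the left. AURKC, SGO2 and CENPQ have first rows of nearly equal length at the left, and TPX2 spreads over 7 rows.

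Genes with several rows reached 1 FPKM more often than genes with 1 row in the table as a whole. The members were therefore also compared within these 2 classes, with no further matching by row number. Of the 24 members with 1 row 23 reached 1 FPKM, against 40.0% of all genes with 1 row. Of the 25 members with several rows 24 did, against 55.9% of all genes with several rows.

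A companion list of further kinetochore, spindle, checkpoint-silencing and cytokinesis genes outside the choice was set beside the members. It holds 45 names, 35 of them measured, and 32 of these (91.4%) reached 1 FPKM. The median of the members was 16.7 FPKM, against 18.4 FPKM for the companion list. The highest were RAN, the GTPase that releases spindle factors such as TPX2 near chromosomes, at 451 FPKM, the centrosome scaffold gene CEP192 at 105 FPKM and the phosphatase gene PPP1CC at 64.9 FPKM. NUSAP1, a microtubule bundling protein, stood at 50.4 FPKM, SPDL1, the dynein adaptor of the corona, at 46.7 FPKM and TRIP13, the ATPase that opens closed MAD2, at 44.3 FPKM. Below 1 FPKM were HAUS8 at 0.807 FPKM, NUMA1, which anchors microtubules at the spindle pole, at 0.440 FPKM (1.14 FPKM over its 9 rows), and PMF1. MEIKIN, a kinetochore protein of the first meiotic division in mouse, stood just above the threshold at 1.00 FPKM.

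The medians of 4 pairs of groups were set side by side. On the log2(FPKM + 1) scale the median of the KMN network lay 0.20 above that of the constitutive network. The checkpoint median minus that of the KMN network was -0.59, and the median of the passenger complex minus that of the constitutive network was -0.57. The first of these differences was 0.035 with the rows of a gene summed and 0.91 with their mean. The second was -1.27 with the mean of rows, and the third turned to 0.32 with summed rows. The median of the members minus that of the companion list was -0.13, and with means in place of medians this became 0.064. None of these differences has an error or a test, as the 4 libraries were merged.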

How the data were processed

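The table has 1 row per Ensembl transcript (37571 rows) and 1 column of FPKM values that the authors computed, per the file headers. Its name says that 4 libraries were merged. How they were merged and which annotation was used are not given in the sources used here. Among tools for all data types, the submitters' processing notes name TopHat2 2.1.1 and Cufflinks 2.2.1 and, as a build, susScr11. FPKM divides by transcript length, so a wrong length shifts a level. Rows above 0 and under 1e-06 FPKM (4534) show a fitted assignment of reads, so depth could not be recovered and no counting interval is given.

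Gene values are the highest row, with a threshold of 1 FPKM. Counts, medians and log2(FPKM + 1) differences were computed with Python 3.11.15, numpy 2.4.6 and pandas 2.3.3. On a simulated table the share, the highest row and the summed rows were recovered. The log2 differences and the scaling to TPM were not tested in that way. No statistical test was run. The level of 1 member is not reported here, though counts include it. Members, role groups and lists were chosen with earlier results of these data known. Every member could be named, with the 6 highest companion genes and those under 1 FPKM. ZWILCH and MEIKIN of that list were named after their values were seen. The planned promoter motifs and protein identities were not run, since no pig sequence was used here.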

Additional observations from a re-analysis of the deposited data

How the results depend on the processing

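Of 146 alternative values, 131 stayed within 1.5 times (or 0.58 on the log2 scale) of the main value with the same sign. These include every count of genes at 1 FPKM or more. The settings were thresholds of 0.5 and 5 FPKM, summed rows, scaling to TPM, a filter at 0.1 FPKM and removal of the trailing zero rows. For the members they gave 42 to 48 of the 49 genes. No member was under 0.1 FPKM or lay only in the trailing zero rows. That filter and that removal therefore could not change any member value, and their part of the tally for the members was fixed in advance. With the mean of a gene's rows in place of the highest, medians were 10.2 FPKM for all members and for the constitutive network, 23.0 FPKM for SKA2 and SKA3, 3.04 FPKM for the corona, 7.80 FPKM for the checkpoint, 10.3 FPKM for the shugoshins, 7.10 FPKM for MAD2L2 and 11.1 FPKM for the companion list. The KMN network then lay 0.91 above the constitutive network, and the checkpoint minus the KMN network was -1.27. With summed rows, medians were 25.8 FPKM for the passenger complex, 75.4 FPKM for PLK1 and TPX2 and 28.4 FPKM for MAD2L2, and the passenger complex lay 0.32 above the constitutive network. With means in place of medians the members lay 0.064 above the companion list. No paired analysis was possible because the table has 1 merged column, and leaving out a replicate was not possible for the same reason. Low levels have no counting error here, so an absence cannot be read from them.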
